A study of Saccharomyces cerevisiae with 72 samples.

Results

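The comparison described here is yeast lacking both GCN2 and GLN3 against yeast lacking GLN3, both in rapamycin, so it shows what the loss of GCN2 did when GLN3 was absent from both groups. It uses 7 of the 72 arrays of the series, picked by their labels: replicates 2 to 4 of gcn2 gln3 and replicates 1 to 4 of gln3. Replicate 1 of gcn2 gln3 in rapamycin was left out because its actin signal was 113 times higher at the 3' than at the 5' end of the mRNA. The gcn2 gln3 cells were strain KY641 and the gln3 cells strain KY640, 1 strain per genotype, so a difference between them can also hold anything else in which the 2 strains differ. The medium of both groups was synthetic dextrose with ammonium sulfate, supplemented with every amino acid except histidine, and both had 200 nM rapamycin for 1 h. The series has 6 genotypes and 3 treatments, with 4 replicates in each of 18 groups. The other genotypes used for comparison here are gcn4 gln3 (KY643), gcn2 (KY654), gcn4 (KY656) and wild type (KY652), and the other treatments are 10 mM 3-aminotriazole (3-AT) for 1 h, which starves cells of histidine, and none. The labels do not say whether replicates are separate cultures, so p-values measure the spread between these arrays, which may be technical.

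Gcn2 is a protein kinase that binds uncharged tRNA and phosphorylates the translation factor eIF2, and this raises translation of the mRNA of Gcn4, a transcription activator of amino acid biosynthetic genes. Gln3 is a GATA transcription activator of genes for the use of poor nitrogen sources, which are repressed when a preferred nitrogen source is at hand. Rapamycin inhibits the TORC1 kinase complex, which acts on both systems: with TORC1 inhibited, Gln3 enters the nucleus and Gcn2 becomes active.

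The values are the deposited linear signals, on which a 2-fold difference is 1 unit of log2. Over the 7 arrays the actin 3'/5' ratio ran from 1.56 to 3.20 and the median signal from 304 to 353. The background of each array was taken as its 30th percentile, which ran from 81.0 to 88.7. Differences below are log2 signal in gcn2 gln3 minus log2 signal in gln3, with the standard error from a limma fit to 69 arrays, and a gene was called at an adjusted p under 0.05 over 6792 probe sets. The mating type of the cells was checked against marker genes. The alpha-cell genes MF(ALPHA)1 (24598, 25069 and 29719 in gcn2 gln3, against 26132, 22335, 21966 and 28787 in gln3) and STE3 were high in both groups, and the a-cell receptor gene STE2 lay below background on all 7 arrays. Over the 5 a-cell genes tested, however, the median signal was 109 in gcn2 gln3 and 153 in gln3, above background. Over the 4 alpha-cell genes it was 2953 in gcn2 gln3 and 2461 in gln3.

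GCN2 mRNA gave a signal of 88.5, 118 and 114 in gcn2 gln3, against 295, 259, 294 and 276 in gln3 (-1.40 ± 0.15, adjusted p = 8.17e-11). The groups did not overlap, but the gcn2 gln3 signal stayed just above background. Its difference was -1.20 ± 0.14 untreated and -0.78 ± 0.15 in 3-AT. GLN3 mRNA lay below background on all 7 arrays, with no signal above 10.2. GCN4 mRNA gave 12376, 15513 and 13407 in gcn2 gln3, against 14799, 16875, 15735 and 17914 in gln3 (-0.25 ± 0.29, adjusted p = 0.656). The array counts mRNA and does not measure the Gcn4 protein.

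With the deposited scaling, more genes were lower than higher in gcn2 gln3. Of 6792 probe sets, 590 were called (8.69%): 392 were lower (5.77%) and 198 higher (2.92%) in gcn2 gln3. Among them, 129 called probe sets were at least 2-fold lower and 25 at least 2-fold higher. The signals of 1222 probe sets (18%) did not overlap between the groups. With the replicate number as a block, 1098 were called (703 lower and 395 higher), among them all 590. The balance of directions depended on scaling, since with each array centred on its median 571 were called, of which 345 were higher and 226 lower. That centring moved the median difference of all probe sets to 0.07, against -0.04 with the deposited scaling. The number also depended on replicate 3 of gcn2 gln3: without it 270 were called, and with all 72 arrays 168.

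**Figure D1:**
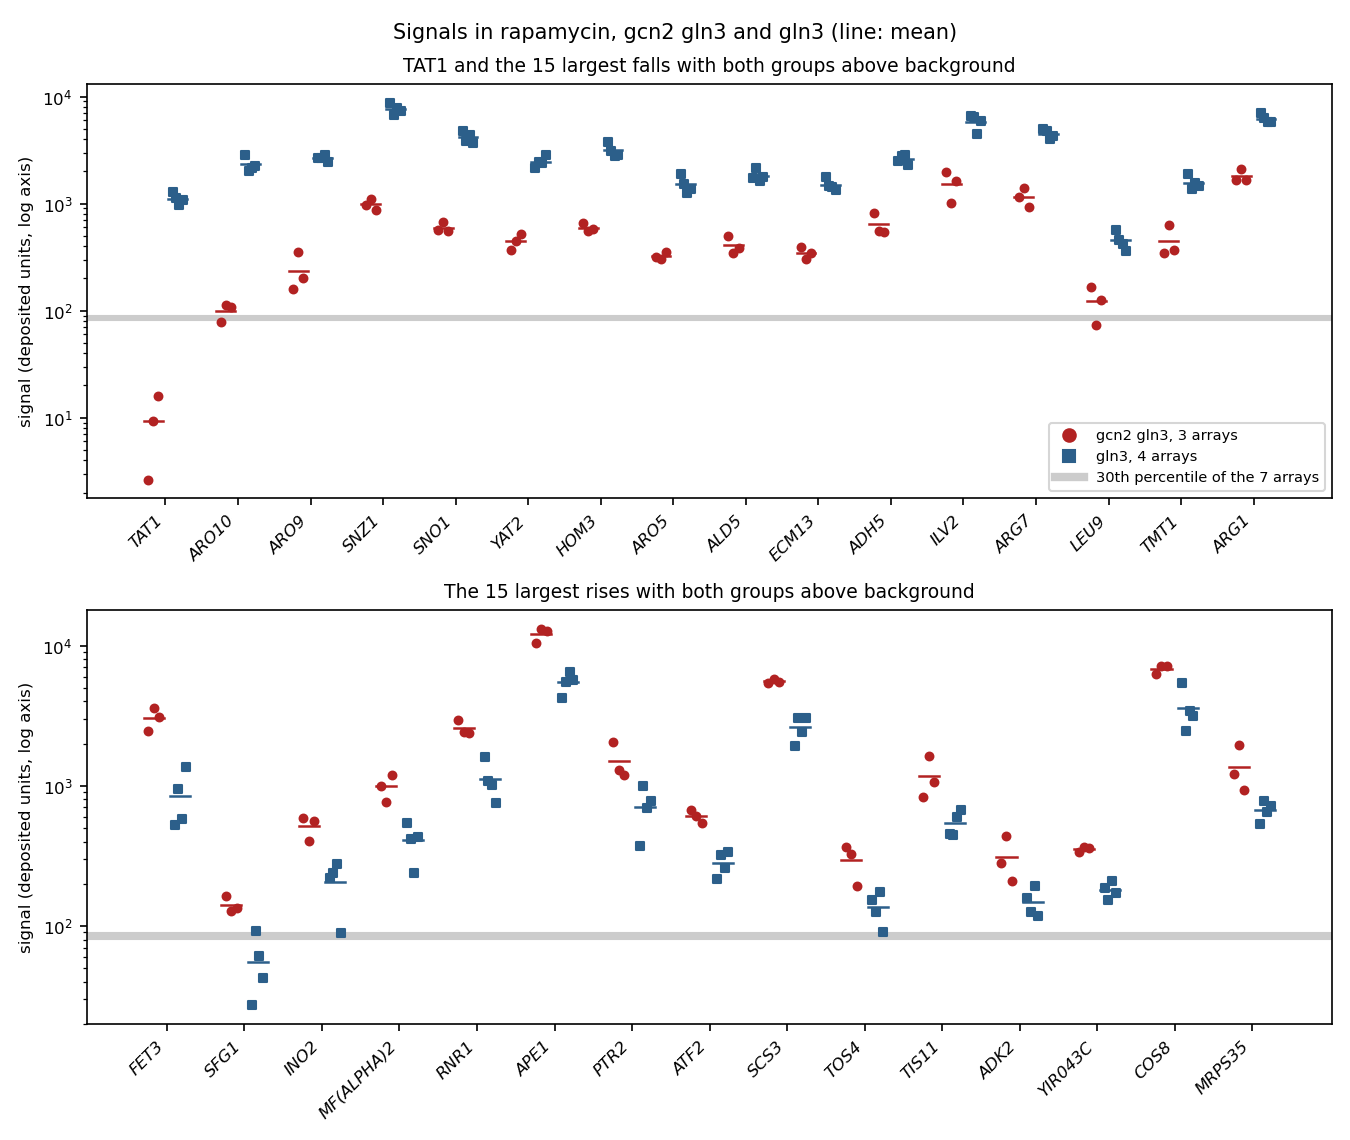
Signals (log axis, deposited units) in rapamycin of TAT1 and the 15 largest falls (upper panel) and the 15 largest rises (lower panel) among called genes; red circles are the 3 gcn2 gln3 arrays, blue squares the 4 gln3 arrays, horizontal lines group means and the grey band the backgrounds of the 7 arrays. TAT1 lies below the band in gcn2 gln3 at 2.64 to 15.8 and near 1112 in gln3, ARO10 and ARO9 are the largest falls among the other genes shown, and FET3 at 2439 to 3585 in gcn2 gln3 is the largest rise.

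Most genes of 5 amino acid biosynthesis lists fell, and the other amino acid lists are given further below. Over histidine, arginine, lysine, branched-chain and aromatic amino acid biosynthesis (5 lists, 47 genes), 35 genes were called lower and 1 higher, and 11 were not called. The count depended on the arrays used. In that order the lists had 5, 7, 6, 8 and 9 lower calls. They had 3, 5, 4, 4 and 6 with all 72 arrays, and 4, 7, 3, 4 and 5 with only the arrays compared. Without replicate 3 of gcn2 gln3 they had 4, 7, 6, 5 and 6. With all 72 arrays the list medians lay from -1.40 to -0.69. The median difference of the 47 was -0.96, beside -0.04 over all probe sets, and 46 of them had a negative difference. In 39 the groups did not overlap, beside 18% of all probe sets. Against the same strain untreated, their median change with rapamycin was -0.21 in gcn2 gln3 and 0.61 in gln3, beside 0.10 in gcn2 gln3 and 0.17 in gln3 over all probe sets.

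Of 8 arginine genes 7 fell, with a median of -1.32. ARG1, which encodes argininosuccinate synthetase, gave 1668, 2124 and 1647 in gcn2 gln3, against 7006, 6257, 5839 and 5772 in gln3 (-1.78 ± 0.16, adjusted p = 3.9e-13), a 3.44-fold difference with no overlap. ARG7, for mitochondrial ornithine acetyltransferase, gave 1151, 1407 and 923 in gcn2 gln3, against 4981, 4717, 4018 and 4265 in gln3 (-1.97 ± 0.12, adjusted p = 3.46e-20). ORT1, the mitochondrial ornithine exporter, fell by 1.48 ± 0.19 and ARG3, ornithine carbamoyltransferase, by 1.66 ± 0.22. The member not called was ARG8 (-0.47 ± 0.18, adjusted p = 0.0913), which was called with the replicate block (adjusted p = 0.0213).

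Of 7 histidine genes 5 fell, with a median of -1.06. HIS3, which encodes the enzyme that 3-AT inhibits, gave 2523, 2306 and 2147 in gcn2 gln3, against 5902, 6382, 5852 and 5632 in gln3 (-1.36 ± 0.15, adjusted p = 1.51e-10). HIS1, HIS4, HIS5 and HIS7 fell by 1.03 to 1.33, while HIS2 (-0.08 ± 0.17) and HIS6 (-0.63 ± 0.36) were not called, and the HIS7 call was lost without replicate 3 of gcn2 gln3. Among 8 lysine genes 6 fell (median -0.90), led by LYS2, the aminoadipate reductase gene (2238, 1394 and 3275 in gcn2 gln3, against 5468, 5918, 4909 and 6352 in gln3, -1.38 ± 0.23, adjusted p = 1.94e-05).

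Branched-chain genes split. Of 11, 8 fell and LEU2 rose. ILV2, acetolactate synthase, gave 1962, 1009 and 1612 in gcn2 gln3, against 6510, 6413, 4466 and 5953 in gln3 (-1.97 ± 0.20, adjusted p = 2.12e-11). LEU9, an isopropylmalate synthase, gave 167, 73.2 and 125 in gcn2 gln3, against 568, 461, 424 and 359 in gln3 (-1.95 ± 0.19, adjusted p = 3.79e-12). LEU2, isopropylmalate dehydrogenase, which is also a common selection marker, gave 4720, 4576 and 4589 in gcn2 gln3, against 2216, 2774, 2671 and 3284 in gln3 (0.77 ± 0.17, adjusted p = 0.00123), and was higher untreated as well (1.25).

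Of 13 aromatic genes 9 fell, with a median of -0.55. ARO4, 1 of the enzymes of the first step, gave 1371, 829 and 1181 in gcn2 gln3, against 3543, 4451, 2308 and 3480 in gln3 (-1.60 ± 0.22, adjusted p = 1.46e-07). ARO3, its isoenzyme, fell by 1.26 ± 0.13 and the pentafunctional enzyme gene ARO1 by 1.07 ± 0.09. ARO7, TYR1, PHA2 and TRP1 were not called, with differences of -0.11 to -0.55, and TRP1 was called with the replicate block (adjusted p = 0.0399).

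**Figure D2:**
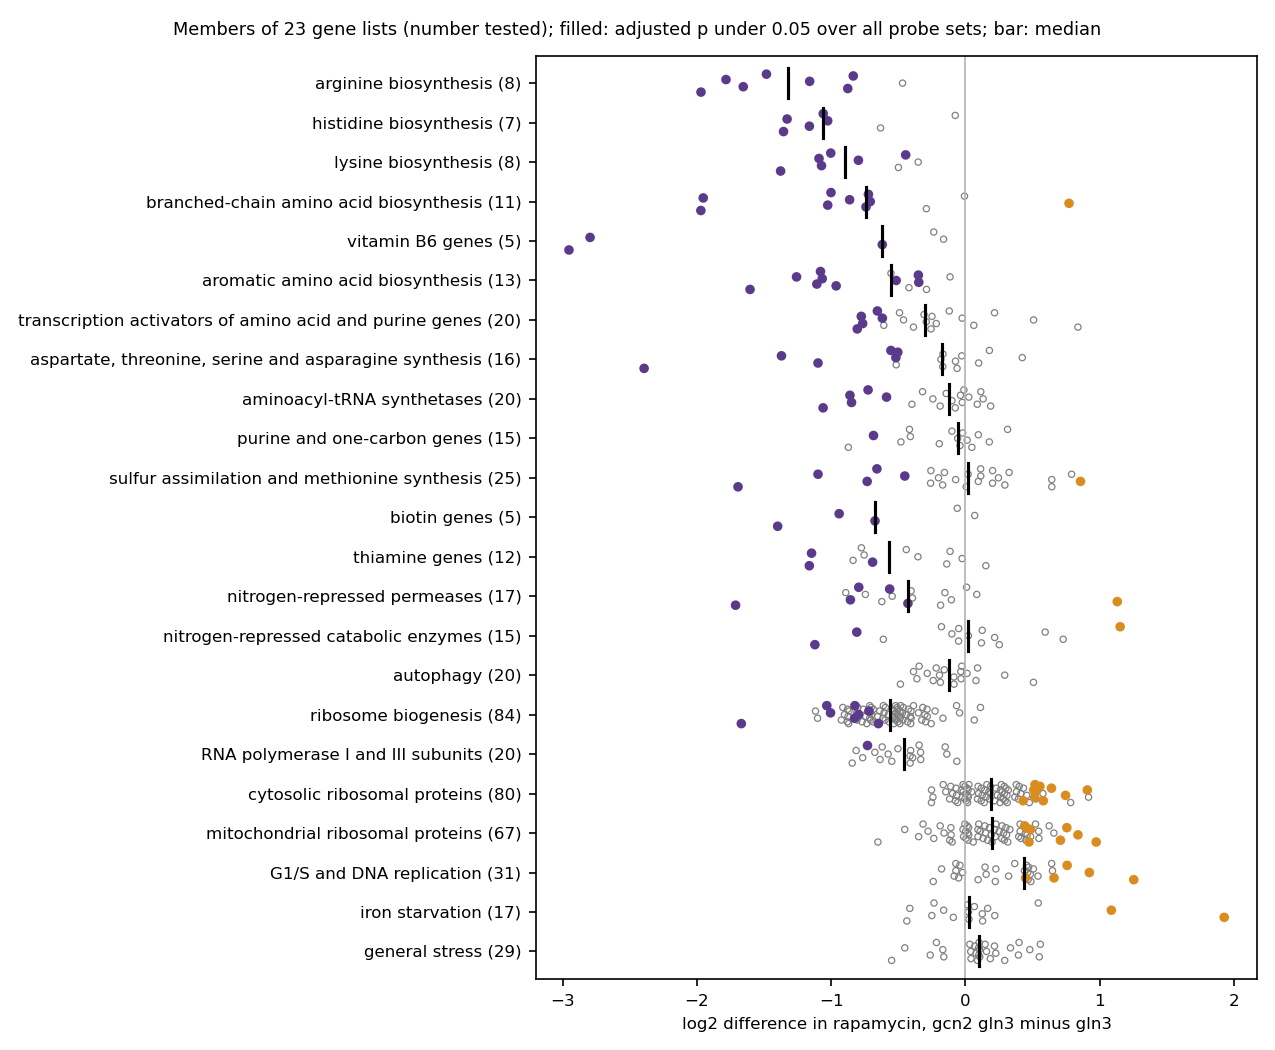
Log2 difference in rapamycin (gcn2 gln3 minus gln3) of each member of selected gene lists, with the number tested in brackets; filled points were called (purple lower, orange higher), open points were not, and the black bar is the list's median. The amino acid lists at the top lie mostly left of 0, 82 of 84 ribosome biogenesis genes lie left of 0 with 8 called, and ribosomal protein and G1/S genes lie mostly right of it.

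Outside those lists the fall reached single genes of other amino acid and vitamin pathways. HOM3, aspartate kinase, the first step towards threonine and methionine, gave 655, 551 and 577 in gcn2 gln3, against 3791, 3101, 2788 and 2875 in gln3 (-2.39 ± 0.18, adjusted p = 3.3e-16), a 5.26-fold difference. Of 16 genes for the aspartate family, serine and asparagine, 6 fell, among them HOM2 (-1.10 ± 0.13) and the asparagine synthetase gene ASN1 (-1.37 ± 0.18), but the median of the list was -0.18. Sulfur assimilation and methionine genes had a median of 0.02: of 25, 5 fell, led by the cystathionine synthase gene STR2 (-1.69 ± 0.17), and SAM2, S-adenosylmethionine synthetase, rose by 0.86 ± 0.23, a call lost without replicate 2 of gcn2 gln3. Untreated, 6 of these 25 genes were called higher in gcn2 gln3 and none lower. In rapamycin 5.77% of all probe sets were called lower. Of 15 purine and one-carbon genes only ADE12 was called (-0.69 ± 0.15); 3 were called with the replicate block.

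SNZ1 and SNO1, neighbours that encode a vitamin B6 synthesis complex, were among the largest falls. SNZ1 gave 972, 1105 and 880 in gcn2 gln3, against 8644, 6791, 7760 and 7339 in gln3 (-2.95 ± 0.15, adjusted p = 3.95e-23), a 7.75-fold difference. SNO1 gave 563, 673 and 557 in gcn2 gln3, against 4752, 3811, 4373 and 3690 in gln3 (-2.80 ± 0.19, adjusted p = 3.78e-18). The groups did not overlap for either gene. Of 5 biotin genes 3 fell, BIO5, a biotin precursor permease, by 1.40 ± 0.30, BIO4 by 0.94 ± 0.19 and BIO3 by 0.67 ± 0.18; the BIO3 call was lost without replicate 2 of gcn2 gln3 and with median centring. Of 12 thiamine genes 3 fell, the permease gene THI7 by 1.16, while 7 fell with the replicate block and 1 without replicate 3 of gcn2 gln3. Both lists were already lower without the drug. The thiamine median was -0.56 untreated and -0.57 in rapamycin, and the biotin median -0.47 untreated and -0.67 in rapamycin. The difference in rapamycin minus that untreated was called for none of these thiamine and biotin genes.

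Several enzymes outside amino acid synthesis fell as far. YAT2, carnitine acetyltransferase, gave 367, 446 and 518 in gcn2 gln3, against 2142, 2432, 2398 and 2836 in gln3 (-2.47 ± 0.17, adjusted p = 2.13e-17). The mitochondrial aldehyde dehydrogenase gene ALD5 fell by 2.16 ± 0.18, the alcohol dehydrogenase gene ADH5 by 2.06 ± 0.20, and TMT1, trans-aconitate methyltransferase, by 1.85 ± 0.18. ARO5 fell by 2.21 ± 0.19 and ECM13 by 2.10 ± 0.41. ATR1, an exporter that confers resistance to aminotriazole, gave 490, 371 and 424 in gcn2 gln3, against 1437, 1203, 1218 and 1193 in gln3 (-1.56 ± 0.17, adjusted p = 1.36e-10).

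Regulators of these pathways moved less. In the circuit of Gcn2 and Gcn4, 2 of 20 genes were called, near the 8.69% called over all probe sets. They were GCN2 itself and PCL5, a cyclin that promotes breakdown of Gcn4 (973, 1502 and 779 in gcn2 gln3, against 3173, 4243, 3254 and 3702 in gln3, -1.77 ± 0.21, adjusted p = 1.9e-09). Of 20 transcription activators 5 fell: LYS14 (-0.81 ± 0.16), BAS1 (-0.78 ± 0.24), UGA3 (-0.77 ± 0.11), PUT3 (-0.66 ± 0.21) and RTG3 (-0.62 ± 0.16). The calls of BAS1 and PUT3 were lost without replicate 3 of gcn2 gln3, without replicate 1 or 2 of gln3 and with median centring, and that of PUT3 also without replicate 2 of gcn2 gln3. Of 20 aminoacyl-tRNA synthetase genes 5 fell, the isoleucyl enzyme ILS1 by 1.06 ± 0.20 and the lysyl enzyme KRS1 by 0.85 ± 0.18, with a list median of -0.12. KRS1 was not called without replicate 3 of gcn2 gln3. Over all probe sets 5.77% were called lower.

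The 3 largest falls in named genes were TAT1, ARO10 and ARO9. TAT1, an amino acid permease, gave 2.64, 9.40 and 15.8 in gcn2 gln3, below background on every array, against 1280, 1125, 975 and 1069 in gln3 (-6.07 ± 0.25, adjusted p = 5.08e-28). With each gcn2 gln3 array set to its background, TAT1 was at least 13.2-fold lower. TAT1 was below background in gcn2 and in gcn2 gln3 in all 3 treatments, and in rapamycin it averaged 822 ± 183 in gcn4 gln3 (SD, n = 3), 9.42 ± 8.19 in gcn2, 508 ± 86.2 in gcn4 and 346 ± 86.7 in wild type (SD, n = 4 each). Untreated, it averaged 11.3 ± 5.32 in gcn2 gln3 and 1704 ± 371 in gln3 (SD, n = 4 each), so TAT1 was as low without the drug.

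ARO10 and ARO9 encode the decarboxylase and the transaminase that break down aromatic amino acids. ARO10 gave 78.7, 114 and 108 in gcn2 gln3, against 2815, 2037, 2155 and 2268 in gln3 (-4.54 ± 0.24, adjusted p = 3.95e-23), a 23.3-fold difference. ARO9 gave 158, 351 and 202 in gcn2 gln3, against 2675, 2668, 2851 and 2433 in gln3 (-3.57 ± 0.24, adjusted p = 7.51e-18). As with TAT1, both were low in the strains without GCN2 and high in those without GCN4: ARO10 in rapamycin averaged 1945 ± 49.9 in gcn4 gln3 (SD, n = 3), 355 ± 100 in gcn2, 3397 ± 767 in gcn4 and 3233 ± 194 in wild type (SD, n = 4 each). What else the gcn2 strains share was not tested.

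**Figure D3:**
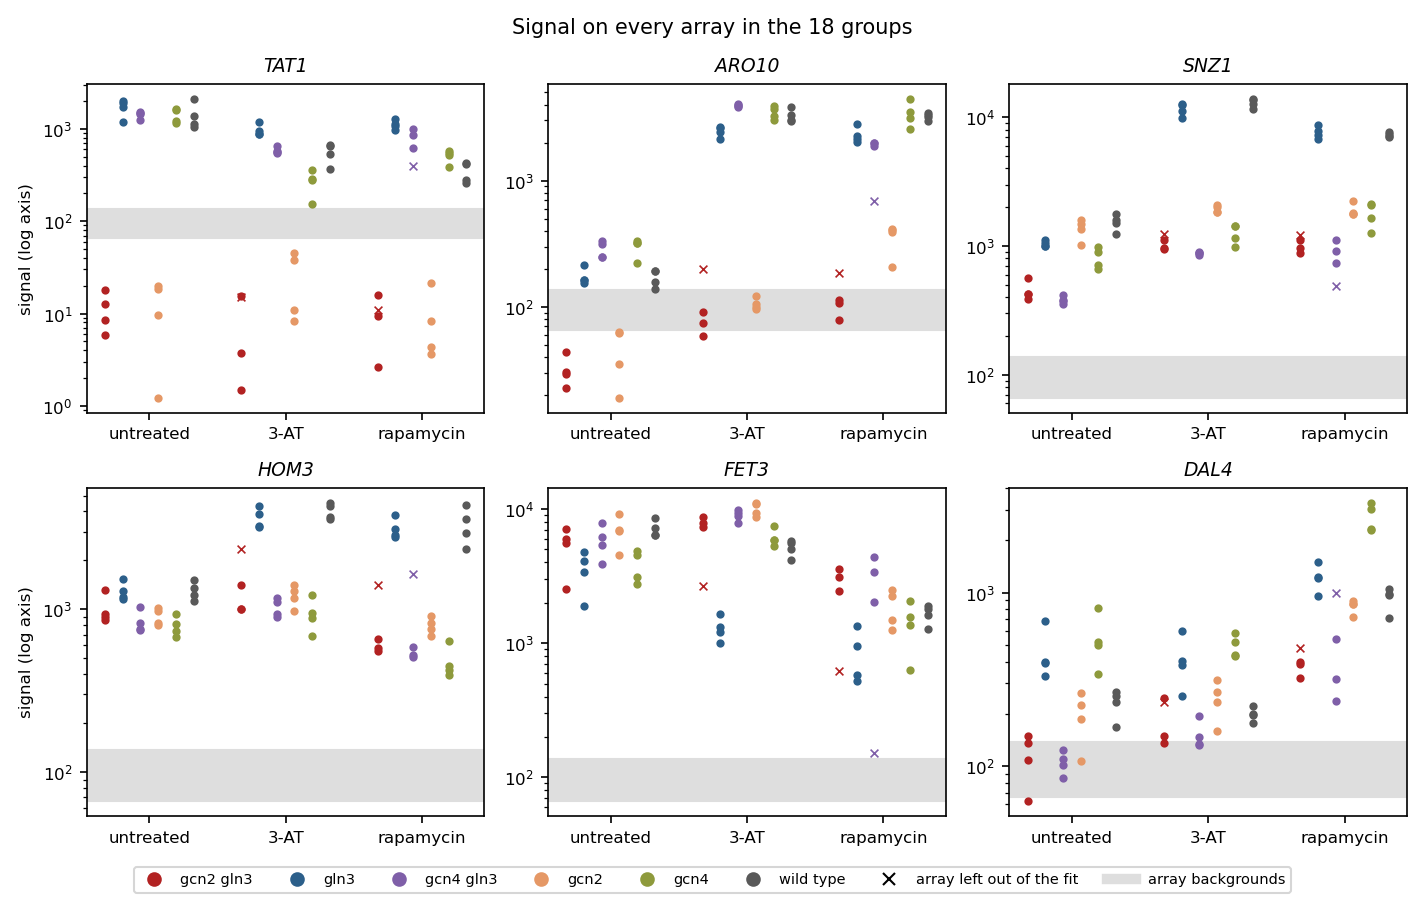
Signal on every array (log axis) of 6 genes in the 18 groups, untreated, in 3-AT and in rapamycin; colours stand for genotypes, crosses for the 3 arrays left out of the fit and the grey band for the range of array backgrounds. Within each treatment TAT1 and ARO10 are lower on every gcn2 and gcn2 gln3 array in the fit than on any array in the fit of another genotype, SNZ1 and HOM3 in rapamycin are also low in gcn4 and gcn4 gln3, FET3 has its lowest mean in gln3 in 3-AT and in rapamycin, and DAL4 in rapamycin has its lowest means in the gcn2 gln3 and gcn4 gln3 strains.

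Genes under nitrogen catabolite repression, many of them targets of Gln3, moved in both directions. Of 17 permease genes 5 fell and 1 rose, with a median of -0.43, beside 5.77% lower and 2.92% higher over all probe sets. The replicate block gave 8 falls, median centring 2, and without replicate 3 of gcn2 gln3 DAL4 was the 1 fall called. DAL4, the allantoin permease gene, gave 323, 398 and 388 in gcn2 gln3, against 1220, 950, 1495 and 1224 in gln3 (-1.71 ± 0.28, adjusted p = 1.28e-05), a 3.28-fold difference with no overlap. The urea permease gene DUR3 fell by 0.86 ± 0.21, and PTR2, the peptide permease gene, rose by 1.13 ± 0.32 (adjusted p = 0.0174). PTR2 was not called without replicate 1 of gln3 (adjusted p = 0.121) or replicate 2 of gcn2 gln3 (adjusted p = 0.110). GAP1, the general amino acid permease, was not called (5654, 3677 and 4536 in gcn2 gln3, against 4575, 5306, 5668 and 5214 in gln3).

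Of 15 catabolic genes of this kind, PUT1, proline oxidase (-1.12 ± 0.21), and DAL2, allantoicase (-0.81 ± 0.24), fell. The share lower over all probe sets was 5.77%. The DAL2 call was lost without replicate 3 of gcn2 gln3 or without replicate 1 or 3 of gln3. APE1, a vacuolar aminopeptidase, gave 10371, 13121 and 12742 in gcn2 gln3, against 4218, 5467, 6489 and 5695 in gln3 (1.15 ± 0.20, adjusted p = 2.33e-05). None of 7 genes for GATA factors and their regulators was called by limma (1 at an unadjusted p under 0.05), among them GAT1 (-0.26 ± 0.17) and URE2 (-0.44 ± 0.17). The replicate block called URE2 (adjusted p = 0.0491), and it called 3 catabolic genes lower and 2 higher.

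Among named genes the largest rises were smaller than the largest falls. FET3, the iron oxidase of high-affinity iron uptake, gave 2439, 3585 and 3090 in gcn2 gln3, against 521, 948, 579 and 1351 in gln3 (1.93 ± 0.32, adjusted p = 1.15e-05), a 3.81-fold difference with no overlap. The array left out of the gcn2 gln3 group gave 619, inside the gln3 range, and with all 72 arrays FET3 was not called (adjusted p = 0.182). The mRNA-binding protein gene TIS11, induced by iron starvation, rose by 1.09 ± 0.29, but of 17 iron genes these 2 were the only ones called and the median was 0.03. TIS11 was not called without replicate 3 of gcn2 gln3 (adjusted p = 0.178) or with all 72 arrays. FTR1, the permease partner of Fet3, was not called (0.13, adjusted p = 0.680). Over all probe sets 2.92% were called higher.

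INO2, an activator of phospholipid synthesis genes, gave 592, 406 and 557 in gcn2 gln3, against 219, 240, 275 and 88.6 in gln3 (1.43 ± 0.27, adjusted p = 0.000171), and SCS3, an endoplasmic reticulum protein linked to inositol and lipid metabolism, rose by 1.11 ± 0.28. The alcohol acetyltransferase gene ATF2 rose by 1.12 ± 0.19. None of these 3 was called with all 72 arrays. COS12 (at least 1.77-fold higher) and COS8 (0.98, adjusted p = 0.0393) belong to a subtelomeric family of near-identical genes whose signals may be shared, and the COS8 call was lost when any 1 of 6 of the 7 arrays was left out. MF(ALPHA)2, a gene of the mating factor of these cells, rose by 1.32 ± 0.29.

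Genes of the G1/S transition were on the higher side. Of 31, 5 rose and none fell, with a median of 0.44 (10 rose with the replicate block), beside 2.92% higher over all probe sets. Untreated, 7 of the 31 were higher, with a median of 0.36, and in 3-AT 12 were higher, with a median of 0.20. The difference in rapamycin minus that untreated had a median of 0.10, with none of the 31 called. For gcn2 minus wild type in rapamycin their median was 0.33. RNR1, the large subunit of ribonucleotide reductase, gave 2923, 2405 and 2373 in gcn2 gln3, against 1614, 1082, 1005 and 750 in gln3 (1.25 ± 0.23, adjusted p = 9.61e-05). The G1 cyclin gene CLN1 rose by 0.76 ± 0.14 and the Pho85 cyclin gene PCL2 by 0.66 ± 0.19, a call lost without replicate 2 of gcn2 gln3 or replicate 4 of gln3. In bulk RNA a larger share of cells in G1/S and more of each mRNA per cell cannot be told apart.

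Ribosome biogenesis genes lay lower in gcn2 gln3, by an amount that depended on replicate 3. Of 84 genes 8 fell, not far from the 5.77% lower over all probe sets. Of the 84, 82 had a negative difference, and the median was -0.56. Set against the mean of the 4 gln3 arrays, their median log2 signal was -0.19, -1.24 and -0.31 on gcn2 gln3 replicates 2, 3 and 4, against 0.25, 0.21, -0.42 and -0.01 on gln3 replicates 1 to 4. Replicate 3 gave the lowest median within each group, and the gcn2 gln3 array was lower than the gln3 array of the same number for replicates 2, 3 and 4. Below the gln3 mean lay 62, 84 and 80 of the 84 genes on gcn2 gln3 replicates 2, 3 and 4, and 84 on gln3 replicate 3. Without replicate 3 of gcn2 gln3, with its gln3 partner kept, the median was -0.24 and 1 gene, DBP2, fell. With the replicate number as a block 51 genes fell, and with median centring 1 gene fell with a median of -0.45. DBP2, an RNA helicase gene, gave 471, 303 and 547 in gcn2 gln3, against 2023, 1020, 1141 and 1455 in gln3 (-1.67 ± 0.29, adjusted p = 3.26e-05), the largest fall of the list. NOP13, a nucleolar protein gene, fell by 1.00 ± 0.31 and the RNA helicase gene DBP3 by 1.03 ± 0.33; both calls were lost without replicate 3 of gcn2 gln3, without replicate 1 or 2 of gln3 and with median centring, and that of DBP3 also without replicate 4 of gln3. Subunits of RNA polymerases I and III had a median of -0.46. Of 20, 1 was called, RPC31 (-0.73 ± 0.21), near the 5.77% lower over all probe sets. With the replicate block 10 were called, and none with median centring or without replicate 3 of gcn2 gln3.

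**Figure D4:**
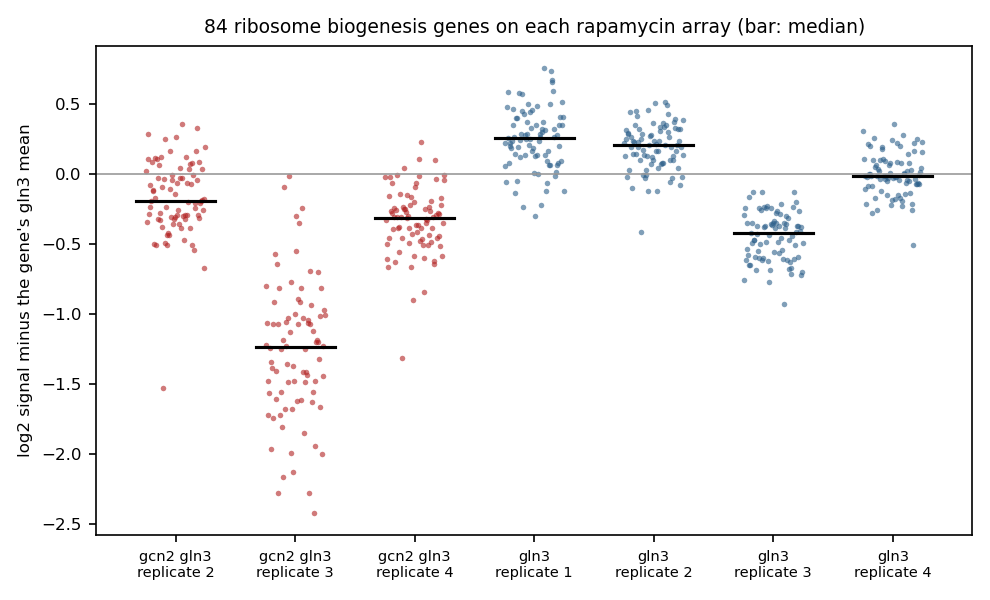
Log2 signal of 84 ribosome biogenesis genes on each rapamycin array, minus the gene's mean over the 4 gln3 arrays; red points are gcn2 gln3, blue points gln3, and the bar is the median. Replicate 3 of gcn2 gln3 lies lowest, at a median of -1.24, and replicate 3 is also the lowest of the gln3 arrays.

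Ribosomal protein genes were slightly higher. Of 80 cytosolic genes 10 rose, with a median of 0.19 (17 rose with the replicate block and 2 without replicate 3 of gcn2 gln3), led by RPS9A (0.91 ± 0.26) and RPS20 (0.75 ± 0.17). Of 67 mitochondrial genes 8 rose, with a median of 0.20 (17 with the block, 16 with median centring and 2 without replicate 3), led by MRPS35 (0.97 ± 0.19) and MRPS12 (0.84 ± 0.16). No gene of either list fell at that threshold, and 2 mitochondrial genes were lower at an unadjusted p under 0.05. The RPS20 call was lost without replicate 3 of gcn2 gln3, and the RPS9A call without replicate 2 or 4 of gcn2 gln3 or replicate 3 of gln3. Over all probe sets 2.92% were called higher. Untreated, the mitochondrial median was 0.22, with 1 gene called higher, and the cytosolic median -0.06, with none called. The difference in rapamycin minus that untreated had a median of -0.04 for the mitochondrial and 0.26 for the cytosolic genes.

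Stress and degradation genes gave few calls. By limma none of 29 general stress genes (median 0.10), 20 autophagy genes (median -0.12) or 32 proteasome genes (median -0.03) was called. At an unadjusted p under 0.05, 3 general stress genes and 1 proteasome gene were higher and 1 autophagy gene was lower, and the replicate block called 2 autophagy genes lower and 1 general stress gene higher. Median centring also called 1 general stress gene higher. Of 9 vacuolar protease genes APE1 and PRC1 (0.45 ± 0.13) rose. Of 20 hexose transporter and glucose repression genes HXT1, HXT2 and HXT4 fell by 0.87 to 1.38, and SUC2, invertase, rose by 0.52 ± 0.18; with the replicate block 5 fell and 2 rose. None of PRC1, HXT1, HXT2, HXT4 and SUC2 was called without replicate 3 of gcn2 gln3 or with all 72 arrays. Of 35 respiratory chain genes 5 fell by 0.33 to 0.69, beside 5.77% lower over all probe sets. Their median was -0.15 in rapamycin and -0.21 untreated. Of the 20 hexose and glucose genes 4 were called lower untreated. The difference in rapamycin minus that untreated was called for no gene of these 2 lists.

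The same strains without drug and in 3-AT show which differences were present outside rapamycin. Untreated, 234 probe sets were called (3.45%), 90 lower (1.33%) and 144 higher (2.12%), and 46 lower and 26 higher were shared with rapamycin. The untreated count was 477 with the replicate block, 43 with all 72 arrays and 138 without replicate 4 of gln3, and median centring gave 103 lower and 111 higher, so the shared counts hold for 1 fit. Those 46 were 11.7% of the falls in rapamycin and 51.1% of those untreated. Of the 47 genes of the 5 biosynthesis lists 2 were lower untreated, ARG4 and ARG7, and their median was -0.06. In 3-AT (3 against 4 arrays) 1832 were called (27%), 794 lower (11.7%) and 1038 higher (15.3%), while median centring gave 1071 lower and 662 higher. In the fit with the deposited scaling they shared 221 falls with rapamycin (56.4% of the falls in rapamycin, 27.8% of those in 3-AT) and 63 rises. In 3-AT 42 of the 47 biosynthesis genes fell, with a median of -1.52, and all 35 that fell in rapamycin were among them. All 15 of the largest falls in rapamycin were also called lower in 3-AT, and 6 of them untreated. Of the 15 largest rises 8 were called higher in 3-AT and 5 untreated.

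Whether rapamycin changed the difference between the strains was tested as the difference in rapamycin minus that without treatment, which shares the rapamycin arrays with the main comparison. It called 154 probe sets (2.27%), 128 lower (1.88%) and 26 higher (0.383%), and 384 with the replicate block. With median centring 69 were lower and 57 higher. Of the 47 biosynthesis genes 24 were lower by limma and none higher, with none higher at an unadjusted p under 0.05 either. HOM3 averaged 594 ± 53.9 in gcn2 gln3 with rapamycin (SD, n = 3) and 1002 ± 210 in gcn2 gln3 untreated, but 3139 ± 454 in gln3 with rapamycin and 1294 ± 177 in gln3 untreated (SD, n = 4 each), a difference of -2.01 ± 0.24 (adjusted p = 3.6e-08). The change of SNZ1 with rapamycin was 1.14 ± 0.15 in gcn2 gln3 and 2.87 ± 0.14 in gln3, a difference of -1.73 ± 0.21 (adjusted p = 3.6e-08). TAT1 (0.56, adjusted p = 0.424) and DAL4 (0.29, adjusted p = 0.741) were not called, and both were called lower in gcn2 gln3 untreated. INO2 did not differ untreated (-0.02 ± 0.25, adjusted p = 0.986), and its difference of responses was 1.46 ± 0.37 (adjusted p = 0.0174).

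Whether the effect of losing GCN2 in rapamycin depended on GLN3 was tested as gcn2 gln3 minus gln3, less gcn2 minus wild type, which shares its rapamycin arrays with the main comparison. It called 48 probe sets (0.707%), 33 lower (0.486%) and 15 higher (0.221%). The count was 292 with the replicate block, 13 without replicate 3 of gcn2 gln3 and 17 without replicate 1 of gln3, and median centring gave 11 lower and 24 higher. For the 47 biosynthesis genes the median effect of losing GCN2 was -0.96 without GLN3 and -1.15 with it. In the test of the difference none was called lower by limma (3 at an unadjusted p under 0.05) and ARO8, an aromatic aminotransferase gene, was called higher (0.80). SNZ1 fell by 2.95 ± 0.15 without GLN3 and by 1.95 ± 0.14 with it (adjusted p of the difference 0.00779), and SNO1 and YAT2 gave differences of -1.06 ± 0.26 and -0.99 ± 0.24 (adjusted p = 0.027 each).

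In 4 genes, DAL4, FET3, APE1 and INO2, the effect without GLN3 was large and that with GLN3 small. DAL4 gave -1.71 ± 0.28 without GLN3 and -0.14 ± 0.26 with it (difference -1.58 ± 0.39, adjusted p = 0.0287), and averaged 370 ± 40.6 in gcn2 gln3 (SD, n = 3), against 1222 ± 223 in gln3, and 835 ± 73.5 in gcn2, against 925 ± 149 in wild type (SD, n = 4 each). FET3 gave 1.93 ± 0.32 without GLN3 and 0.14 ± 0.29 with it (difference 1.79 ± 0.43, adjusted p = 0.027). APE1 gave 1.15 ± 0.20 without GLN3 and -0.19 ± 0.18 with it (difference 1.34 ± 0.27, adjusted p = 0.00466), and INO2 gave 1.43 ± 0.27 without GLN3 and near 0 with it (difference 1.44, adjusted p = 0.0444). FET3 averaged 3038 ± 575 in gcn2 gln3 (SD, n = 3), 850 ± 384 in gln3, 1864 ± 588 in gcn2 and 1645 ± 272 in wild type (SD, n = 4 each). With all 72 arrays the calls of FET3, APE1 and INO2 between gcn2 gln3 and gln3 were lost. With only the arrays compared, the test of the difference called 4 probe sets in all. Ribosome biogenesis genes had a median of -0.56 without GLN3 and 0.28 with it, and the median of the differences was -0.84. In the test of the difference 53 of 84 were lower and none higher at an unadjusted p under 0.05, and 1 was called, DBP2 (-1.81 ± 0.40, adjusted p = 0.0135). Without replicate 3 of gcn2 gln3 that test called 13 of all probe sets, and this list was not looked at separately. Against the gln3 mean these genes had medians of -0.19, -1.24 and -0.31 on gcn2 gln3 replicates 2, 3 and 4. On gln3 replicate 3 it was -0.42.

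**Figure D5:**
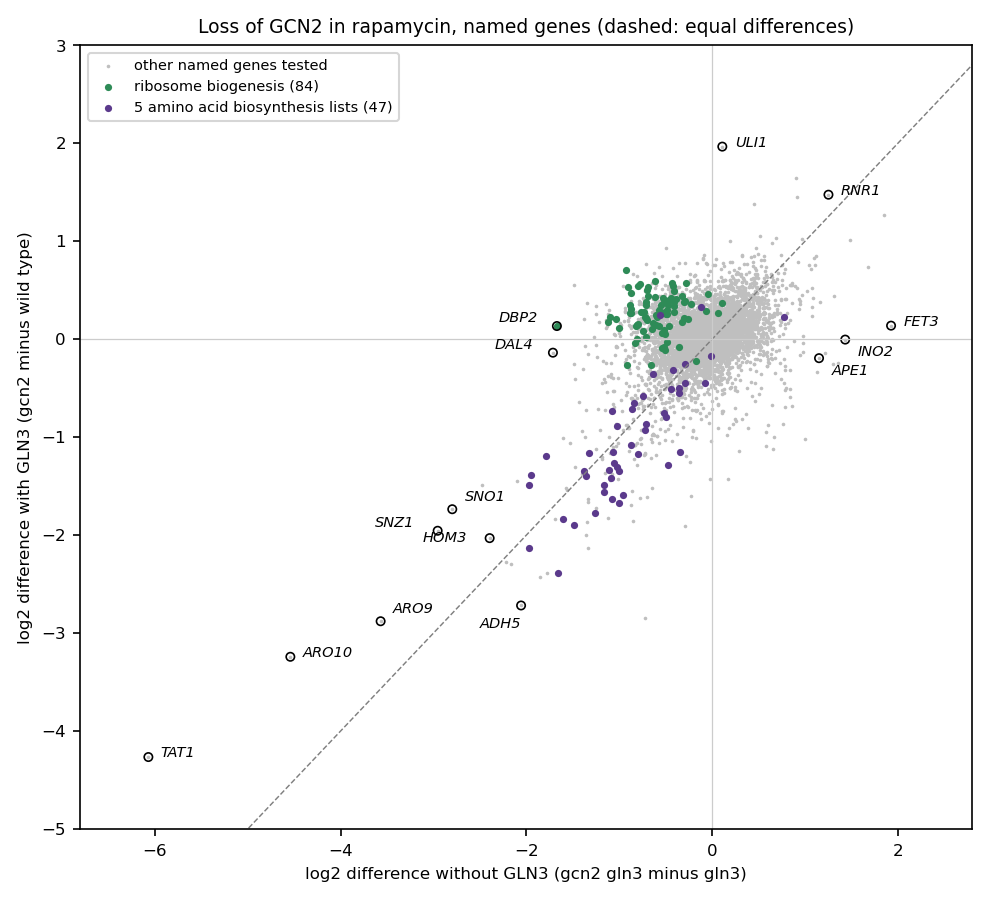
Log2 difference on losing GCN2 in rapamycin for each named gene tested, without GLN3 (gcn2 gln3 minus gln3, horizontal) and with GLN3 (gcn2 minus wild type, vertical); purple points are the 47 genes of 5 amino acid biosynthesis lists, green points the 84 ribosome biogenesis genes, circled genes are named and the dashed line marks equal differences. The purple points lie near the dashed line, SNZ1 and SNO1 lie left of it, and DAL4, DBP2, FET3, INO2 and APE1 lie near 0 on the vertical axis.

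Set directly against gcn4 gln3 in rapamycin (3 arrays each), gcn2 gln3 differed in 47 probe sets (0.692%), 13 lower (0.191%) and 34 higher (0.501%). The count was 99 with the replicate block, 5 with only the arrays compared, 13 without replicate 3 of gcn2 gln3 and 94 without replicate 2 of gcn2 gln3. This comparison shares the gcn2 gln3 arrays with the main one. None of the 47 biosynthesis genes was called by limma (4 higher and 1 lower at an unadjusted p under 0.05), and their median was 0.03. The mean of HOM3 was 594 ± 53.9 in gcn2 gln3, against 541 ± 39.3 in gcn4 gln3, and that of SNZ1 was 986 ± 113 in gcn2 gln3, against 921 ± 182 in gcn4 gln3 (SD, n = 3 each). TAT1 was below background in gcn2 gln3 and averaged 822 in gcn4 gln3. ARO10 (-4.30 ± 0.25) and ARO9 (-3.26 ± 0.26) were also lower in gcn2 gln3, as was DBP2 (-1.53 ± 0.31, adjusted p = 0.00388). GCN4 mRNA was higher in gcn2 gln3 and below background in gcn4 gln3. NFS1, a cysteine desulfurase gene, was lower in gcn2 gln3 (5098 ± 866, against 16109 ± 2378 in gcn4 gln3, SD, n = 3 each), averaged 18292 in gcn4 and 4652 in gln3, and was not called between gcn2 gln3 and gln3 (0.14, adjusted p = 0.724).

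Of the 590 called probe sets 105 have no gene named here, 62 higher and 43 lower. The largest rises of all were among them: 3953_at averaged 3323 in gcn2 gln3 and 1.98 in gln3, and 3954_at 2136 in gcn2 gln3 and 5.07 in gln3. Both were also high in gcn2, gcn4 and gcn4 gln3 and below background in wild type. Their differences were as large without the drug, 6.94 for 3953_at and 6.95 for 3954_at. The difference in rapamycin minus that untreated was called for neither. The means of 3952_at and 3951_at followed the same pattern over genotypes, with differences of 5.89 and 3.89 untreated and 6.16 and 4.07 in rapamycin. With the gln3 arrays set to their background, 3953_at was at least 38.7-fold and 3954_at at least 25.4-fold higher. Among the falls, 6980_at averaged 0.648 in gcn2 gln3, below background, and 102 in gln3, just above it. With the gcn2 gln3 arrays set to their background it was at least 1.21-fold lower. Its difference was -3.20 untreated, and rapamycin minus untreated was not called. The probe set 10902_at averaged 1451 in gcn2 gln3 and 5444 in gln3.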

How the data were processed

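The deposited values are linear signal intensity for 9335 probe sets, which the authors computed with GCOS and MAS5, per the submitters' processing notes. No version of either is given in the sources used here. Each array's trimmed mean lay at 1000.62 to 1001.2, so the deposited arrays share a common scale, and no pair of arrays was a copy (highest correlation 0.990).

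Signals were raised to a floor of 16.5 (their 10th percentile), then put on the log2 scale as deposited, without rescaling. No test included the 60 control probe sets. Of the rest, 6504 read 1 gene, 328 several and 2443 none in GEO's platform annotation, with symbols updated from RefSeq's genes. Where a gene had several probe sets (315 of 5656 genes), that of highest mean signal stood for it. A probe set was tested if above its array's 30th percentile on at least 4 of 69 arrays, which left 6792, for 5399 named genes. Of 72 arrays, 3 with an actin 3'/5' ratio over 10 were left out. limma 3.58.1 (R 4.3.3, with the data.table package, version 1.17.8) fitted 18 group means with 51 residual degrees of freedom and a prior of 4.16, and p-values were adjusted by Benjamini-Hochberg within each contrast. The script was tested on simulated data. Where no array of a group lay above background, a bound sets each dim array to its background. The plots were drawn in matplotlib 3.10.9 (Python 3.11.15, pandas 2.3.3, numpy 2.4.6). The number of arrays limits the precision.

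The comparison, the 45 gene lists and the tests were chosen with earlier results of these data known. Genes named are the deleted genes and GCN4, the 15 largest rises and falls among called genes with no overlap, the 5 largest bounds, list members (for lists over 25 genes, the 4 with the smallest adjusted p and the 4 with the largest change) and the 5 largest called differences each way in each other comparison. Same-numbered arrays deviated together (r = 0.325, 0.371 and 0.373 for replicates 2 to 4, against -0.314 to 0.090 for other pairs), so the data show a pairing by number. The main fit has no term for it, so its standard errors and adjusted p-values ignore the pairing. Values with the replicate block, which uses the pairing, stand beside results whose call they change or whose count they move by over 1.5 times. The labels do not say what the numbers share. Alternatives were the floor, the filter, median centring, quantile normalization, the block, all 72 arrays, only the arrays compared, and leaving out each array. No sequences or coordinates were used here.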

Additional observations from a re-analysis of the deposited data

Results flagged for a closer look

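Among the 4 gln3 arrays in rapamycin, SPO21, a meiosis gene, stood apart on replicate 4, with a signal of 103 against 146 to 149 on the other 3. It was the 1 such case in 37 genes looked at, and chance alone gives about 1 in 20.

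The difference between gcn2 gln3 and gln3 was not the same with rapamycin as without it, by the test of that difference, for 10 named genes at the ends of the range. It was more positive in rapamycin for SCS3 (1.57), INO2 (1.46), MPD1 (1.35), DPM1 (0.97) and ATF2 (0.96). It was more negative in rapamycin for LEU9 (-2.23), ARO9 (-2.20), ALD5 (-2.19), ADH5 (-2.13) and ATR1 (-2.11). ATR1 was higher in gcn2 gln3 untreated (0.55) and lower in rapamycin (-1.56).

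The effect of losing GCN2 in rapamycin differed with the presence of GLN3, by the test of that difference, in another 10. It was more positive without GLN3 for FET3 (1.79), SRL4 (1.62), YNCJ0008W (1.47), INO2 (1.44) and APE1 (1.34). SRL4 and YNCJ0008W lay below background on all 7 arrays, so their values come from dim signals. It was more negative without GLN3 for ULI1 (-1.86), DBP2 (-1.81), TAT1 (-1.80), YCR087C-A (-1.72) and DAL4 (-1.58). TAT1 was at the floor in both gcn2 strains, so its value reflects 1112 in gln3 and 346 in wild type. ULI1 did not differ between gcn2 gln3 and gln3 (0.11, adjusted p = 0.811), and gave 1.97 in gcn2 against wild type.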

How the results depend on the processing

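With all 72 arrays the counts called were 168 in rapamycin, 43 untreated, 1060 in 3-AT, 39 for the difference of responses, 5 for the dependence on GLN3 and 21 against gcn4 gln3. With only the arrays compared they were 127, 53, 1724, 43, 4 and 5, from fewer arrays. With the replicate block they were 1098, 477, 2364, 384, 292 and 99, and no call among 38 named genes changed. Leaving out 1 array at a time gave 270 to 629, 138 to 233, 1375 to 1748, 107 to 181, 13 to 72 and 13 to 94. The lowest counts came without replicate 3 of gcn2 gln3 in rapamycin for the main comparison, the dependence on GLN3 and gcn4 gln3, and the lowest untreated came without replicate 4 of gln3. In rapamycin the count was also 390 without replicate 1 of gln3.

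The floor and the filter kept the main count at 531 to 623, and quantile normalization at 533 (226 higher and 307 lower). With median centring, higher and lower calls were 111 and 103 untreated, 662 and 1071 in 3-AT, 57 and 69 for the difference of responses and 24 and 11 for the dependence on GLN3.

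For 38 named genes, 571 of 607 values under another setting lay on the same side of the threshold, and 36 kept direction without the call. No called gene among them reversed; GLN3, at the floor in both groups, has no direction. With all 72 arrays the calls of FET3, SFG1, INO2, APE1, PTR2, ATF2, SCS3, TIS11, ADK2, COS8, MRPS35 and SPO21 were lost. Without replicate 3 of gcn2 gln3 those of TOS4, TIS11, ADK2 and COS8 were lost. The cause was not tested.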

Other observations

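Of 12 amino acid exporter and vacuolar transporter genes 3 were lower in gcn2 gln3: ATR1, RTC2 (-1.36 ± 0.38, adjusted p = 0.0166), which encodes a vacuolar cationic amino acid transporter, and AVT6 (-0.53 ± 0.16), which exports acidic amino acids from the vacuole. The share lower over all probe sets was 5.77%. RTC2 gave 584, 951 and 533 in gcn2 gln3, against 1331, 1915, 2589 and 1288 in gln3, with no overlap. The RTC2 call was lost without replicate 2 or 4 of gcn2 gln3 or replicate 3 of gln3, and that of AVT6 without replicate 3 of gcn2 gln3 or replicate 1 or 3 of gln3.

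Of 6 glutamate and glutamine genes GDH3 (-0.71 ± 0.24), GLT1 (-0.45 ± 0.13) and IDP1 (-0.51 ± 0.15) were lower. None of the 3 was called without replicate 3 of gcn2 gln3. For this and the next 2 lists, the share lower over all probe sets was 5.77%. Of 22 TOR complex and effector genes GTR1, a GTPase gene upstream of TORC1, was called (-0.50 ± 0.13, adjusted p = 0.00885), but not without replicate 3 of gcn2 gln3; the replicate block called 2. Of 17 genes for peroxisomes and fatty acid oxidation, the carnitine genes CAT2 (-0.64 ± 0.17) and CRC1 (-1.48 ± 0.44) were lower; the CAT2 and CRC1 calls were lost without replicate 2 of gcn2 gln3, and that of CRC1 also without replicate 4 of gcn2 gln3 or replicate 2, 3 or 4 of gln3.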
